A study of Mus musculus with 9 samples.

Results

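Cells that carried both an Eya3 hairpin and an active IKK2 kinase were set against cells with a scramble hairpin, to see which gene programmes stayed away from the scramble level, matched it or passed it. The line was 66cl4, labelled as murine triple negative breast cancer, grown in high-glucose DMEM with calf serum. The members were the 6 libraries, of 9 in the series, whose column names gave the scramble hairpin with the empty vector (3 libraries, called scramble) or the Eya3 hairpin with IKK2-SE (3 libraries, called add-back). The 3 libraries with the Eya3 hairpin and the empty vector, called knockdown, were kept as a reference. Cells of all 3 groups had been transduced with a hairpin and held in puromycin at 2.5 ug/ml, and had been selected for mCherry, the mark of the second vector. The replicates were labelled biological, and whether they came from separate transductions is not given, so p-values measured only the spread between these cultures. Scramble and add-back cells differed in the hairpin as well as in IKK2-SE, and scramble cells with IKK2-SE are not among the libraries, so those contributions cannot be told apart. A single Eya3 hairpin and a single scramble control entered the comparison, and the labels and the count table number the hairpin differently, so which hairpin it was is not given here.

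NF-kB is a family of dimeric transcription factors, among them RelA and the p50 subunit made from Nfkb1, which IkB proteins hold in the cytoplasm. The IKK complex, with the catalytic subunits IKK1 and IKK2 and the scaffold NEMO, phosphorylates IkB and so marks it for destruction, and the freed dimers turn on cytokines, chemokines, adhesion molecules, survival genes and their own inhibitors. IKK2-SE carries serine-to-glutamate changes that keep the kinase active without a stimulus. Eya3 encodes a transcriptional coactivator of the Eyes absent family that also has phosphatase activity. In mammary tumours, NF-kB activity is known for inflammatory secretion and for recruitment of myeloid cells.

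Library totals ran from 63601403 to 77149018 counts in the scramble and from 69381510 to 75538142 in the add-back group. On principal components of log2 CPM (counts scaled to a common library size), the first component, with 74.35% of the variance, placed the 3 scramble libraries apart from the other 6. The second, with 8.801%, placed add-back apart from knockdown. On the third, with 4.048%, add-back replicates 2 and 3 lay at opposite ends. Of the genes that define the triple-negative label, Pgr had no counts in any library, Esr1 stood at 11.3 to 12.4 CPM in scramble and 19.1 to 21.4 CPM in add-back, and Erbb2 at 52.3 to 57.0 CPM and 62.1 to 65.5 CPM, so transcripts of the latter pair were detected. Protein was not measured. Epcam, an epithelial marker, was at or below 0.0664 CPM in every library and was not tested.

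The targeted gene kept its low level in the add-back cells. Eya3 (plus strand of chromosome 4, from 132638987 to 132724765 in GRCm38/mm10, a protein-coding gene) was at 63.0, 64.1 and 60.9 CPM in the scramble libraries and 29.0, 26.0 and 24.7 CPM in the add-back libraries. Every add-back library lay below every scramble library. The log2 difference, add-back minus scramble with its standard error, was -1.24 ± 0.06 (edgeR's quasi-likelihood test with Benjamini-Hochberg adjustment, as for every adjusted p here; edgeR adjusted p = 1.52e-11). Against knockdown the log2 difference was 0.09 ± 0.06 (edgeR adjusted p = 0.406), with an interval inside the same band of 0.32 that defines a match below. Ikbkb (minus strand of chromosome 8, from 22659212 to 22706589), the mouse gene for IKK2, matched the scramble level, at 46.6, 46.1 and 50.7 CPM in the scramble libraries and 47.1, 49.2 and 49.4 CPM in the add-back libraries, with a log2 difference of 0.02 ± 0.05 and a 95% interval of -0.07 to 0.12. Whether reads from the IKK2-SE vector were counted under Ikbkb is not given in the sources used here.

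Across the genome the add-back cells remained far from scramble. Of 16766 tested genes, 9352 (55.8%) differed at an edgeR adjusted p below 0.05, 4533 higher (27%) and 4819 lower (28.7%). Differences of at least 2-fold numbered 1000 higher (5.96%) and 1351 lower (8.06%). A gene is said here to have matched scramble where it was not called and the 95% interval of its log2 difference lay within 0.32 of 0. That held for 2967 genes (17.7%), and 4447 (26.5%) were neither called nor narrow enough to call a match. Libraries of the add-back and scramble groups did not overlap for 10240 genes (61.1%). The knockdown cells, which share the same scramble libraries, differed from scramble at 9643 genes (57.5%), and add-back differed from knockdown at 1749 (10.4%).

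**Figure D1:**
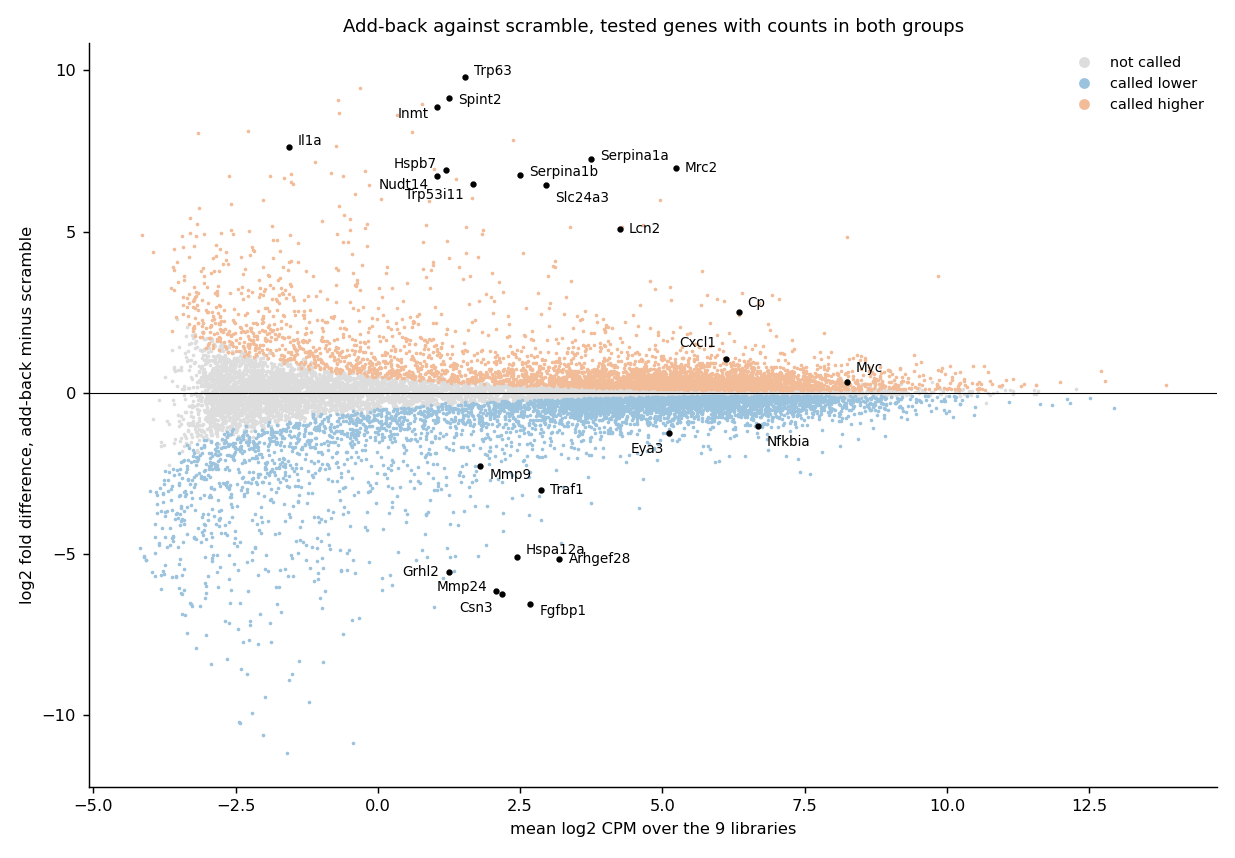
Each point is 1 of 16649 tested genes with counts in both groups, with its mean log2 CPM over the 9 libraries on the x axis and its log2 difference, add-back minus scramble, on the y axis. Blue and orange points were called lower or higher; labelled genes run from Trp63 at 9.81 to Fgfbp1 at -6.55.

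Neighbouring genes moved together on several chromosomes. On chromosome 10, 789 tested genes had a median log2 difference of -0.34. Chromosome 17 (767 genes) had 0.30 and chromosome 3 (869 genes) 0.26, where all tested genes had -0.0022. Chromosome medians lay between -0.04 and 0.02 on every chromosome when add-back was set against knockdown. For some modest differences below, the median of the 41 tested genes centred on the gene is given where it lay in the same direction. Its part in those differences was not tested. Where no median is given, the neighbours may still have moved. List counts against scramble below are to be read against the shares of all tested genes called higher, 27%, and lower, 28.7%. Among the 12361 genes that reached 1 CPM in at least 3 libraries these shares were larger, with 4103 genes higher and 4115 lower. Many lists had a higher median level than all tested genes.

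**Figure D2:**
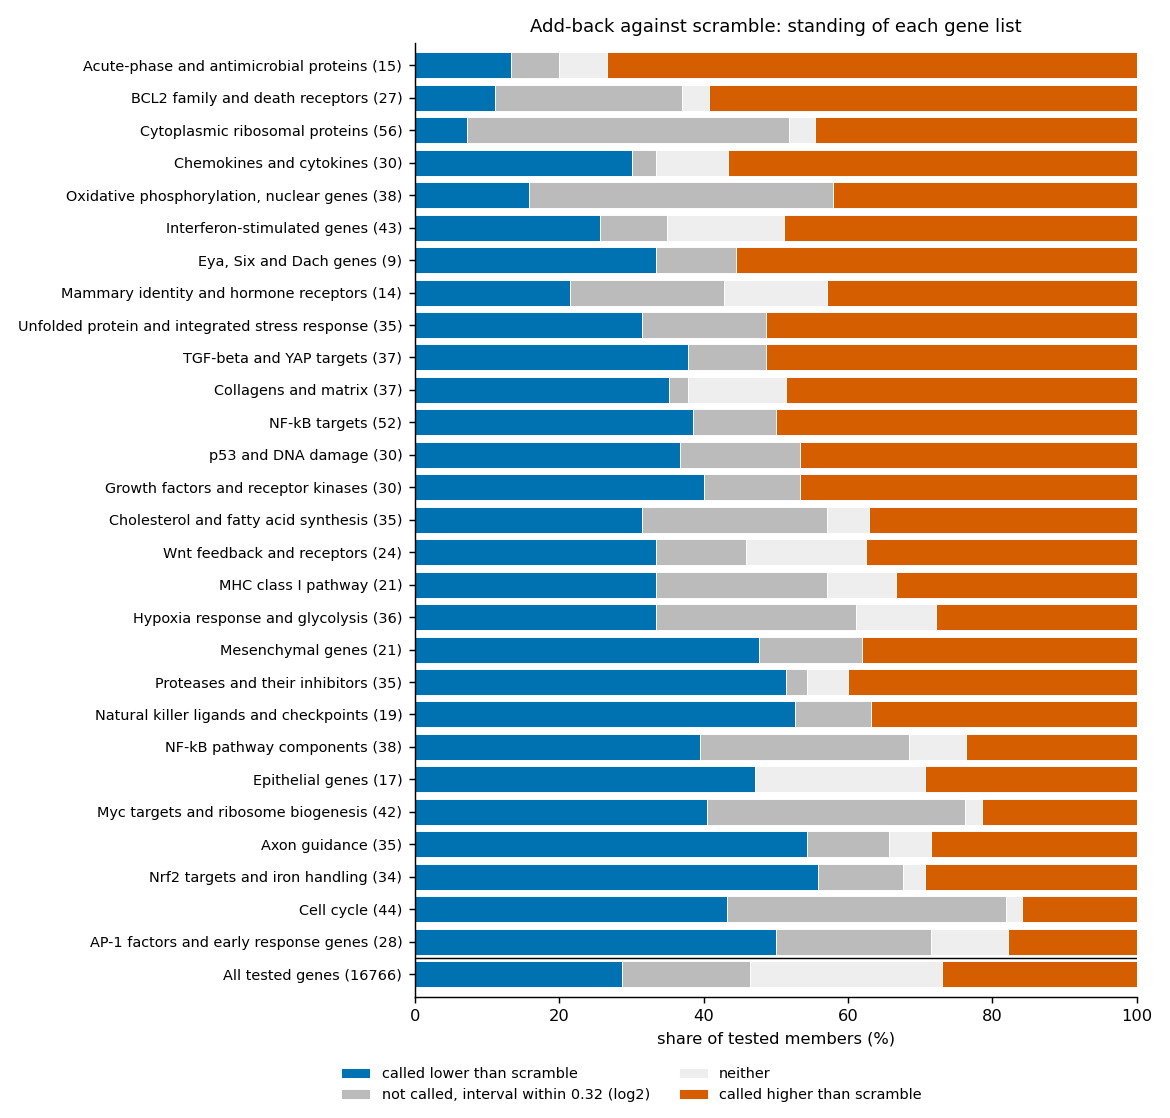
Stacked bars give, for 28 gene lists (tested members in brackets) and all tested genes, the share of members called lower than scramble, matched, neither, and called higher in add-back cells. Acute-phase proteins have the widest orange part, with 11 of 15 members, and Nrf2 targets the widest blue part, with 19 of 34.

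NF-kB target genes divided into a part that passed scramble and a part that stayed below it. Of 60 listed targets 52 were tested, and 26 were higher (50%, against 27% of all tested genes), 20 lower (38.5%, against 28.7%) and 6 matched scramble. Of these, 17 were higher and 6 lower by at least 2-fold. The median log2 difference was 0.08, against a median of -0.58 for knockdown minus scramble over the same 52 genes. Against knockdown, 39 were higher and 2 lower, where 5.61% and 4.82% of all tested genes were called. The higher part held 11 chemokines and cytokines, and the lower part held the inhibitors Nfkbia, Nfkbib, Nfkbie and Tnfaip3 and the NF-kB subunit genes Nfkb2, Rel and Relb.

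Il1a, which encodes the cytokine interleukin-1 alpha, was at 0.108, 0 and 0.0266 CPM in the scramble libraries and 10.1, 6.94 and 8.66 CPM in the add-back libraries. The scramble libraries were at or near 0, so the size of the log2 difference of 7.64 ± 0.35 (edgeR adjusted p = 3.03e-11) rests on few reads. Ccl20, the chemokine for CCR6-bearing cells, was likewise near 0 in scramble, at 0.170, 0.0384 and 0.213 CPM, and reached 5.45, 5.34 and 6.07 CPM in add-back (log2 difference 5.33 ± 0.26, edgeR adjusted p = 4.31e-11). Both genes were near 0 in knockdown too, at means of 0.0562 and 0.129 CPM.

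Fas, Vcam1 and Icam1 also passed scramble. Fas, a death receptor, was at 1.90, 1.70 and 2.79 CPM in the scramble libraries and 12.3, 10.5 and 13.1 CPM in the add-back libraries, with no overlap and a log2 difference of 2.49 ± 0.15 (edgeR adjusted p = 4.75e-10). Vcam1, an adhesion molecule for leukocytes, was at 2.58, 2.53 and 2.91 CPM in the scramble libraries and 14.8, 13.6 and 13.8 CPM in the add-back libraries, a log2 difference of 2.40 ± 0.10 (edgeR adjusted p = 6.46e-12). Knockdown libraries lay near scramble for both, at 2.42, 2.54 and 2.86 CPM for Fas and 3.43, 2.71 and 3.00 CPM for Vcam1. Icam1, another adhesion molecule, was at a mean of 2.01 CPM against 0.433 CPM in scramble, a log2 difference of 2.19 ± 0.31 (edgeR adjusted p = 1.59e-05).

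Cxcl1, Cxcl5 and Cxcl2, CXC chemokine genes whose products attract neutrophils, were above scramble. Cxcl1 (plus strand of chromosome 5, from 90891241 to 90893115) was at 83.9, 90.9 and 101 CPM in the scramble libraries and 196, 178 and 192 CPM in the add-back libraries, and at 18.6, 18.4 and 20.2 CPM in knockdown. All 3 add-back libraries lay above all 3 scramble libraries, and those above knockdown. The log2 difference from scramble was 1.04 ± 0.06 (edgeR adjusted p = 3.49e-10), beside a neighbourhood median of 0.29. Cxcl5 (plus strand of chromosome 5, from 90759360 to 90761624) gave 133, 147 and 165 CPM in the scramble libraries and 228, 209 and 232 CPM in the add-back libraries, a log2 difference of 0.59 ± 0.07 (edgeR adjusted p = 4.4e-06). It lies close to Cxcl1, and its own neighbourhood median is not given here. Cxcl2, of the same family and named after its values were seen, was scarce, with a mean of 0.341 CPM in add-back and 0.148 CPM in scramble (log2 difference 1.20 ± 0.44, edgeR adjusted p = 0.0298). That call was lost without scramble replicate 1 or 2 or without add-back replicate 1 or 3, with edgeR adjusted p from 0.0564 to 0.131.

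Monocyte chemokines parted. Ccl2 (plus strand of chromosome 11, from 82035571 to 82037453) was at 42.4, 50.4 and 62.2 CPM in the scramble libraries and 34.9, 30.2 and 37.0 CPM in the add-back libraries. Knockdown libraries held only 0.312, 0.433 and 0.239 CPM. The add-back libraries lay below scramble without overlap and far above knockdown, with a log2 difference of -0.60 ± 0.13 (edgeR adjusted p = 0.00238). Ccl7, a close relative encoded nearby, was at 1.18, 1.43 and 2.27 CPM in the scramble libraries and 8.08, 6.70 and 8.49 CPM in the add-back libraries, a log2 difference of 2.24 ± 0.19 (edgeR adjusted p = 6.15e-08). Its 3 add-back values were all higher than its 3 scramble values.

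Promoter sequences are shown for targets that stood on either side of scramble: Cxcl1 and Cxcl2 above, Cxcl10 and Nfkbia below. Each is the RefSeq window (GRCm38.p6) of 250 bases upstream of the annotated start, printed 5′ to 3′ along the gene's strand, with capitals where GGG and TCC with any 4 bases between them, a core of the NF-kB site, matched on either strand (overlapping matches merged). The windows are chr5:90890995-90891244 (plus) for Cxcl1, chr5:90903649-90903898 (plus) for Cxcl2, chr5:92348890-92349139 (minus) for Cxcl10 and chr12:55492648-55492897 (minus) for Nfkbia.
Cxcl1: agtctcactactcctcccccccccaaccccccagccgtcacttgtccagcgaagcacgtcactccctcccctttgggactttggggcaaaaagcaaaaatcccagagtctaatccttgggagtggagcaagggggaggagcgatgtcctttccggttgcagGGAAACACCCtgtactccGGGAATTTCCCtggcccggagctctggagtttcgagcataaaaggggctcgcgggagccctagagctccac
Cxcl2: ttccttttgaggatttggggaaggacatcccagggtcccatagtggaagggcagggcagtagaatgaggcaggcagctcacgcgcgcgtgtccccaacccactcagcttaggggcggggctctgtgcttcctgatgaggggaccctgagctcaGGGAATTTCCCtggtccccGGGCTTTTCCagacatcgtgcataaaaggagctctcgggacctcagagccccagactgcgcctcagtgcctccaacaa
Cxcl10: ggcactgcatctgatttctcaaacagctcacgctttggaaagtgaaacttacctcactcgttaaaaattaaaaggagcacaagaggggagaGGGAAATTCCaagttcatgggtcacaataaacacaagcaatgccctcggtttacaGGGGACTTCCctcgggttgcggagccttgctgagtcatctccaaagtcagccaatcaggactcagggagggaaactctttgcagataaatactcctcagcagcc
Nfkbia: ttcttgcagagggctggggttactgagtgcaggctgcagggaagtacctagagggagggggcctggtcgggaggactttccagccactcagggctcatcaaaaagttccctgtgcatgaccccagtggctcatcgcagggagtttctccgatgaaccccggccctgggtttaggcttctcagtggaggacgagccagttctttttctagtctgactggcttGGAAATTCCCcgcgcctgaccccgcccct
The Cxcl1 and Cxcl2 windows held 3 matches each, Cxcl10 held 2 and Nfkbia 1, with the closest to the start 70, 78, 104 and 29 bases upstream of it. Among NF-kB targets with a window, 9 of 18 higher genes (50%), 7 of 16 lower genes (43.8%) and 2 of 6 others (33.3%) had a match. The share was 16.5% over all 32841 windows of this length and 23.5% over the 10748 tested genes with one. A match is a run of letters only, and genes above and below scramble both had it.

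Nfkbia, Tnfaip3 and Traf1 stayed below scramble. Nfkbia (minus strand of chromosome 12, from 55489410 to 55492647), which encodes the inhibitor IkB alpha, was at 220.0, 227 and 216 CPM in the scramble libraries and 111, 109 and 109 CPM in the add-back libraries, with 44.3, 44.2 and 44.3 CPM in knockdown. The add-back libraries formed a tight group between the other groups. They lay below scramble by a log2 difference of -1.01 ± 0.03 (edgeR adjusted p = 4.98e-13) and above knockdown by 1.31 ± 0.04 (edgeR adjusted p = 4.11e-13). Tnfaip3 (minus strand of chromosome 10, from 19000910 to 19015657), the A20 ubiquitin editor that damps the pathway, was at 84.6, 86.5 and 79.2 CPM in the scramble libraries and 45.9, 46.7 and 40.9 CPM in the add-back libraries, a log2 difference of -0.91 ± 0.06 (edgeR adjusted p = 9.99e-10). It was at 50.5, 45.9 and 45.1 CPM in knockdown, and its interval between add-back and knockdown lay within 0.32 of 0.

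Traf1, an adaptor of TNF receptors, was at 34.9, 36.7 and 37.3 CPM in the scramble libraries and 5.28, 4.01 and 4.19 CPM in the add-back libraries. Every add-back library was far below every scramble library, by a log2 difference of -3.01 ± 0.09 (edgeR adjusted p = 6.99e-14), while still above the 2.32, 2.45 and 2.34 CPM of knockdown. Mmp9, a gelatinase, showed the same order, with 12.9, 1.19 and 2.70 CPM in scramble, knockdown and add-back and a difference from scramble of -2.25 ± 0.10 (edgeR adjusted p = 2.07e-11). Ier3, an early response gene, was lower than scramble by a log2 difference of -0.84 ± 0.05 (edgeR adjusted p = 2.08e-10). It was also lower than knockdown (log2 difference -0.22 ± 0.05, edgeR adjusted p = 0.00506). Junb, an AP-1 subunit, and Tnip1, a partner of A20, matched scramble, with intervals of -0.09 to 0.09 and -0.17 to 0.02. Cxcl10, the interferon-inducible chemokine for CXCR3-bearing cells whose promoter is printed above, was named after its values were seen and was lower (log2 difference -1.01 ± 0.12, edgeR adjusted p = 2.47e-06).

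**Figure D3:**
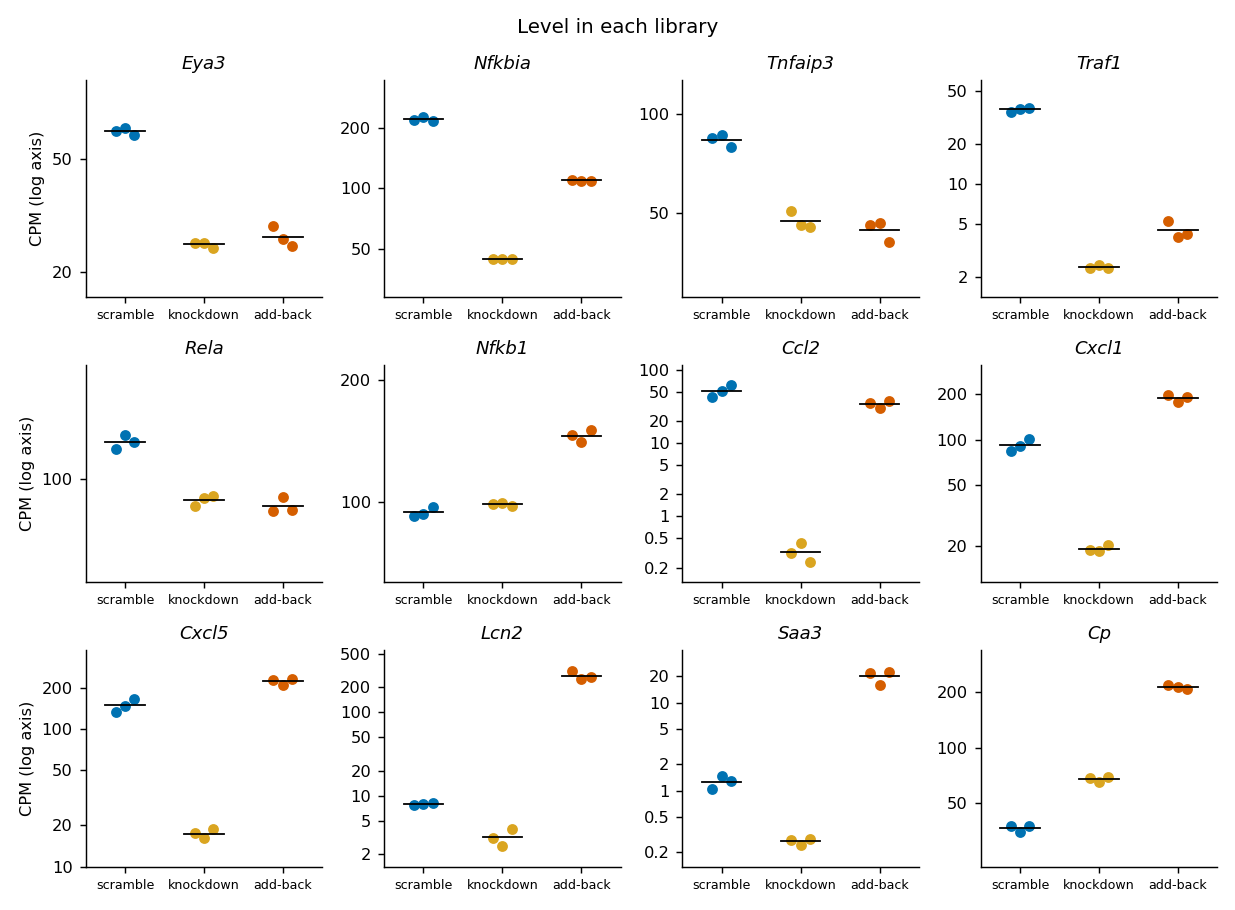
Points give the level of 12 genes in each of the 9 libraries in CPM on log axes, with a line at each group's mean. Nfkbia in add-back lies between the other groups, Tnfaip3 lies with knockdown, and Lcn2 and Cp lie above both.

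**Figure D4:**
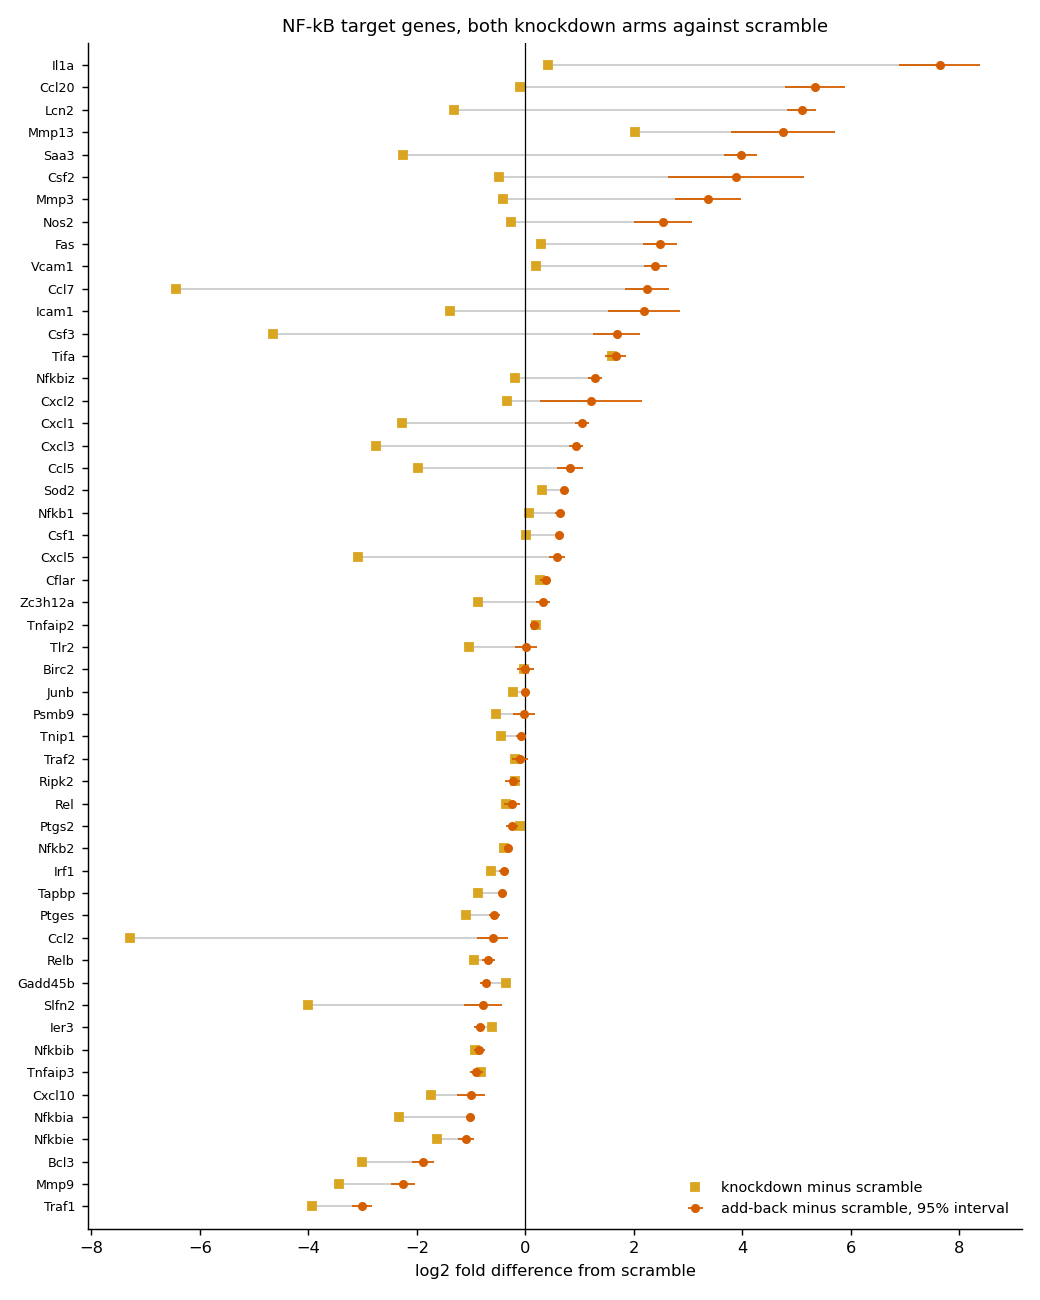
Log2 differences from scramble for the 52 tested NF-kB targets, with squares for knockdown and circles with 95% intervals for add-back. Circles run from 7.64 for Il1a to -3.01 for Traf1, and both arms are set against the same scramble libraries, so the pairs share that error.

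Components of the NF-kB pathway differed by small amounts. Of 38 tested, 9 were higher, 15 lower, 11 matched and 3 were neither, with a median of -0.08, and 2 differed by at least 2-fold, both lower. The dimer subunits went opposite ways. Rela (plus strand of chromosome 19, from 5637483 to 5648130), the p65 subunit, was at 117, 126 and 122 CPM in the scramble libraries and 84.9, 91.3 and 85.5 CPM in the add-back libraries, a log2 difference of -0.48 ± 0.04 (edgeR adjusted p = 5.31e-08). The genes around it had a median of -0.38. Nfkb1 (minus strand of chromosome 3, from 135584655 to 135691547), also a target, was at 91.9, 93.4 and 97.1 CPM in the scramble libraries and 146, 141 and 150.3 CPM in the add-back libraries, a log2 difference of 0.63 ± 0.04 (edgeR adjusted p = 4.83e-10), with a neighbourhood median of 0.58. For each of these genes the groups did not overlap, and against knockdown only Nfkb1 of this pair was called (log2 difference 0.56 ± 0.04, edgeR adjusted p = 3.03e-08).

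Within the IKK complex, Ikbkg, which encodes the scaffold NEMO, was higher (log2 difference 0.72 ± 0.04, edgeR adjusted p = 5.45e-10) and so was Chuk, which encodes IKK1 (log2 difference 0.35 ± 0.03, edgeR adjusted p = 3.15e-07). Traf3, which restrains the alternative pathway, was lower (log2 difference -0.66 ± 0.05, edgeR adjusted p = 3.23e-09). Il1rap, the accessory chain of the interleukin-1 receptor, was at 19.8, 20.4 and 25.4 CPM in the scramble libraries and 9.26, 9.33 and 10.4 CPM in the add-back libraries, lower (log2 difference -1.18 ± 0.10, edgeR adjusted p = 2.28e-08). Tnfrsf1b, a TNF receptor, was higher (log2 difference 0.57 ± 0.07, edgeR adjusted p = 3.23e-06). The kinases Map3k7 and Ripk1 and the adaptor Tollip matched scramble, the widest of their intervals being -0.17 to -0.0043 for Map3k7.

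Chemokines and cytokines as a list stood mostly above scramble. Of 43 listed 30 were tested, and 17 were higher, 9 lower, 1 matched and 3 were neither, with a median log2 difference of 0.58 and a knockdown median of -1.10. Of these 30 genes, 13 are also on the list of NF-kB targets. Cxcl12, the ligand of CXCR4, was at 239, 236 and 225 CPM in the scramble libraries and 92.4, 90.7 and 88.1 CPM in the add-back libraries, a log2 difference of -1.37 ± 0.04 (edgeR adjusted p = 4.83e-14), and lay below its knockdown level of 106, 103 and 101 CPM as well. Il34, a ligand of the CSF1 receptor, was at 24.8, 22.6 and 20.8 CPM in the scramble libraries and 6.89, 7.94 and 6.66 CPM in the add-back libraries, lower (log2 difference -1.67 ± 0.10, edgeR adjusted p = 4.95e-10). Kitl, the ligand of Kit, was lower (log2 difference -0.91 ± 0.05, edgeR adjusted p = 1.42e-10), beside a neighbourhood median of -0.68. Tnfsf9, a costimulatory ligand, matched scramble, with an interval of -0.06 to 0.23.

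Acute-phase and antimicrobial proteins passed scramble more often than any other list with at least 10 tested members. Of 28 listed 15 were tested, and 11 were higher, 10 of them at least 2-fold, while 2 were lower, 1 matched and 1 was neither. The median log2 difference was 3.51, and the same with the 2 genes that had no scramble counts set to their lower bound. That median is the value of S100a8, which was at most 0.205 CPM in scramble. Many members were scarce, with a median level of -1.148 log2 CPM over the 9 libraries, so the size of the median rests on few reads. Lcn2 (minus strand of chromosome 2, from 32384633 to 32388252), the iron-scavenging lipocalin, was at 7.86, 7.87 and 8.21 CPM in the scramble libraries and 309, 249 and 261 CPM in the add-back libraries. It was at 3.16, 2.54 and 3.96 CPM in knockdown, below scramble, and every add-back library was far above both, with a log2 difference of 5.10 ± 0.12 from scramble (edgeR adjusted p = 5.03e-11). Saa3, an acute-phase apolipoprotein, was at 1.04, 1.49 and 1.29 CPM in the scramble libraries and 21.7, 15.9 and 22.5 CPM in the add-back libraries, a log2 difference of 3.97 ± 0.15 (edgeR adjusted p = 1.59e-12).

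Cp, which encodes the copper-carrying ferroxidase ceruloplasmin, was at 38.0, 35.3 and 38.0 CPM in the scramble libraries and 216, 213 and 208 CPM in the add-back libraries, and at 68.2, 65.6 and 69 CPM in knockdown. The groups stood in the order scramble, knockdown, add-back without overlap, with a log2 difference of 2.52 ± 0.04 from scramble (edgeR adjusted p = 7.52e-17). C3, the central complement component, was at 85.5, 79.4 and 76.2 CPM in the scramble libraries and 286, 279.9 and 249.7 CPM in the add-back libraries, higher (log2 difference 1.76 ± 0.06, edgeR adjusted p = 8.54e-13). Hp, the haemoglobin-binding haptoglobin, had no counts in the scramble or knockdown libraries and 2.20, 1.31 and 2.11 CPM in add-back, at least 136-fold higher than a floor of 3 counts over the scramble group. C1s1, a complement protease, was lower (log2 difference -0.30 ± 0.04, edgeR adjusted p = 2.38e-05) and its partner C1ra matched, with an interval of -0.18 to 0.0023. Wfdc2, a secreted protease inhibitor, stayed low, at a mean of 0.187 CPM against 0.921 CPM in scramble (log2 difference -2.30 ± 0.38, edgeR adjusted p = 6.62e-05).

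Interferon-stimulated genes spread around the scramble level. Of 43 tested, 21 were higher, 11 lower, 4 matched and 7 were neither, with a median of 0.25. Against knockdown 30 were higher and 1 lower, where 5.61% and 4.82% of all tested genes were called. Without add-back replicate 1, 15 members were called higher than scramble and 14 lower, and 8 rather than 4 had intervals within 0.32 of 0. The mean log2 level of the list, minus the scramble mean, was 0.36 in that library and 0.05 and 0.16 in add-back replicates 2 and 3. Gbp2, a guanylate-binding protein of cell defence, was at 11.8, 10.8 and 12.3 CPM in the scramble libraries and 43.0, 35.1 and 35.7 CPM in the add-back libraries, higher (log2 difference 1.71 ± 0.08, edgeR adjusted p = 3.89e-11). Oasl1, which restrains the interferon response, was at 102, 114 and 116 CPM in the scramble libraries and 39.5, 31.8 and 34.9 CPM in the add-back libraries, lower (log2 difference -1.65 ± 0.07, edgeR adjusted p = 3.35e-11), and its 38.7, 34.4 and 37.6 CPM in knockdown overlapped with add-back. Rsad2, the antiviral enzyme viperin, was lower (log2 difference -1.09 ± 0.11, edgeR adjusted p = 5.67e-07) and so was Ifi35 (log2 difference -0.71 ± 0.07, edgeR adjusted p = 4.1e-07). Eif2ak2, the double-stranded RNA kinase PKR, was higher (log2 difference 0.67 ± 0.05, edgeR adjusted p = 3.96e-09), beside a neighbourhood median of 0.44. The RNA sensor Ifih1 and the ADP-ribosyltransferase Parp14 matched scramble after a knockdown level that was lower. Ifih1 averaged 29.5, 21.5 and 29.4 CPM in scramble, knockdown and add-back, and Parp14 32.8, 17.9 and 31.0 CPM.

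In the MHC class I pathway, higher and lower members were equal in number. Of 23 listed 21 were tested, and 7 were higher, 7 lower, 5 matched and 2 were neither, with a median of -0.02. Psmb8, an immunoproteasome subunit, was at 18.9, 19.4 and 19.1 CPM in scramble and at 0, 0.0565 and 0.0143 CPM in add-back, near 0 in every add-back library (edgeR adjusted p = 1.93e-14). Knockdown was near 0 too, at 0.0749, 0.127 and 0.0266 CPM. Tapbp, the tapasin chaperone of peptide loading, averaged 265, 145 and 197 CPM in scramble, knockdown and add-back and was lower than scramble (log2 difference -0.43 ± 0.04, edgeR adjusted p = 9.81e-08). H2-D1, a classical class I heavy chain, was lower (log2 difference -0.46 ± 0.05, edgeR adjusted p = 1.38e-06), while H2-K1, another, matched with an interval of -0.16 to 0.02. Class I genes are near copies of each other, so reads may have been split between them. Pdia3 and Canx, chaperones of folding in the endoplasmic reticulum, were higher, with log2 differences of 0.52 ± 0.03 and 0.25 ± 0.03 (edgeR adjusted p = 1.07e-09 and 9.97e-06). Erap1, which trims peptides, matched, with an interval of -0.17 to 0.02.

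Ligands read by natural killer cells and checkpoint ligands were lower more often than higher. Of 25 listed 19 were tested, with 7 higher, 10 lower and 2 matched and a median of -0.19. Pvr, a ligand of CD226 and TIGIT, was at 134, 129.8 and 135 CPM in the scramble libraries and 56.5, 55.6 and 48.4 CPM in the add-back libraries, lower (log2 difference -1.31 ± 0.06, edgeR adjusted p = 7.15e-11) and below its knockdown level of 75.0, 65.9 and 63.6 CPM. Cd48, a ligand of CD244, was at 5.80, 5.54 and 5.57 CPM in the scramble libraries and 0.198, 0.396 and 0.300 CPM in the add-back libraries, a log2 difference of -4.24 ± 0.19 (edgeR adjusted p = 1.16e-11). Ulbp1, a ligand of NKG2D, was lower (log2 difference -0.51 ± 0.04, edgeR adjusted p = 4.63e-08). Cadm1, an adhesion molecule bound by CRTAM, was higher (log2 difference 0.91 ± 0.04, edgeR adjusted p = 1.08e-11). Cd274, which encodes PD-L1, was at 5.00, 4.76 and 5.10 CPM in the scramble libraries and 6.45, 5.09 and 6.17 CPM in the add-back libraries with overlapping groups, and its difference of 0.25 ± 0.10 passed narrowly (edgeR adjusted p = 0.0467). That call was lost in 9 of 17 alternative analyses, and over all 17 its adjusted p ran from 0.00758 to 0.175. Nectin2 and Lgals9 matched scramble.

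In 5 lists the share of 95% intervals within 0.32 of 0 was larger than in any other list. Of 56 tested cytoplasmic ribosomal proteins, 40 had such intervals, 25 of them not called, and none differed by at least 2-fold. For the 38 nuclear genes of oxidative phosphorylation, 28 intervals lay inside, for 44 cell cycle genes 26. For 35 genes of the unfolded protein and integrated stress response the number was 19, and for 42 Myc targets and ribosome biogenesis genes 20. Over all tested genes, 4588 (27.4%) had such an interval. Many of their members were well expressed, and the median standard error was 0.04 for each of these 5 lists and 0.08 over all tested genes, so narrow intervals were more attainable for them.

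Ribosomal protein calls leaned upward, with 25 higher and 4 lower and a median of 0.10. Without scramble replicate 1 the lower calls numbered 2. Rpl5 and Rps2 were higher, with log2 differences of 0.66 ± 0.04 and 0.58 ± 0.04 (edgeR adjusted p = 1.77e-10 and 2.26e-09), beside a neighbourhood median of 0.33 for Rpl5. Rpl4, in the large subunit, stood at 3046, 2969 and 2939 CPM in the scramble libraries and 2979, 2922 and 2877 CPM in the add-back libraries, a match with an interval of -0.10 to 0.04. Rps15 and Rps16 were lower, with log2 differences of -0.36 ± 0.04 and -0.26 ± 0.04 (edgeR adjusted p = 4.02e-07 and 1.52e-05), with neighbourhood medians of -0.67 and -0.47. Rps20 was called at a log2 difference of -0.13 ± 0.05 (edgeR adjusted p = 0.0361), with its interval within 0.32 of 0, and lost its call in 5 of 17 alternatives. Ribosomal protein genes have many processed copies, so their counts depend on how such reads were assigned.

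Nuclear genes of oxidative phosphorylation had 16 higher, 6 lower and 16 matched members. None was called between add-back and knockdown, where 10.4% of all tested genes were. Cox4i1, of cytochrome oxidase, was at 290.3, 289 and 281 CPM in the scramble libraries and 289, 280.4 and 287 CPM in the add-back libraries, with an interval of -0.08 to 0.07, and Cyc1, cytochrome c1, also matched. Ndufs7, of complex I, and Atp5b, the beta subunit of ATP synthase, were lower, with log2 differences of -0.64 ± 0.07 and -0.43 ± 0.04 (edgeR adjusted p = 2.21e-06 and 4.07e-08). Both lie on chromosome 10, with neighbourhood medians of -0.67 and -0.48.

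Cell cycle genes had 7 higher, 19 lower and 17 matched members, with a median of -0.09 and none at 2-fold. Rrm1, the large subunit of ribonucleotide reductase, was at 596, 601 and 599.9 CPM in the scramble libraries and 361, 367 and 379.8 CPM in the add-back libraries, lower (log2 difference -0.70 ± 0.03, edgeR adjusted p = 4.03e-11). The mitotic regulator Foxm1 was lower (log2 difference -0.51 ± 0.03, edgeR adjusted p = 1.96e-09) and so was the kinetochore protein gene Cenpf (log2 difference -0.74 ± 0.04, edgeR adjusted p = 1.57e-10), the latter beside a neighbourhood median of -0.62. Ccnd1, cyclin D1, was at 1698, 1700.1 and 1632 CPM in the scramble libraries and 2202, 2218 and 2224 CPM in the add-back libraries, higher (log2 difference 0.40 ± 0.03, edgeR adjusted p = 3.59e-08), and lay between scramble and the 2533, 2424 and 2465 CPM of knockdown. Mcm3, of the replicative helicase, and Birc5, survivin, matched, with intervals of -0.12 to 0.02 and -0.06 to 0.09.

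Among Myc targets and ribosome biogenesis genes 9 were higher, 17 lower and 15 matched, with a median of -0.05. Myc (plus strand of chromosome 15, from 61985391 to 61990374) itself was at 246, 251 and 250.5 CPM in the scramble libraries and 306, 332 and 300.1 CPM in the add-back libraries, higher than scramble (log2 difference 0.33 ± 0.04, edgeR adjusted p = 3.76e-06) and lower than knockdown (log2 difference -0.19 ± 0.04, edgeR adjusted p = 0.00494). Mxd4, which competes with Myc for its partner Max, was at 9.82, 9.82 and 9.42 CPM in the scramble libraries and 25.8, 25.6 and 23.4 CPM in the add-back libraries, higher (log2 difference 1.37 ± 0.06, edgeR adjusted p = 1.98e-11). Odc1, the first enzyme of polyamine synthesis and a Myc target, was at 1526, 1544 and 1453 CPM in the scramble libraries and 1030.5, 957 and 958 CPM in the add-back libraries, lower (log2 difference -0.62 ± 0.04, edgeR adjusted p = 9.1e-10). Its knockdown level was lower still, at 703, 692 and 704 CPM. Ncl and Eif5a matched scramble, and Utp20 and Fbl, of ribosome biogenesis, were lower, with log2 differences of -0.52 ± 0.04 and -0.40 ± 0.04 (edgeR adjusted p = 2.58e-08 and 4.17e-07) beside neighbourhood medians of -0.53 and -0.46.

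Genes of p53 and the DNA damage response had 14 higher and 11 lower members of 30 tested, 5 matched and none at 2-fold. Zmat3, a target of p53, and Sesn3 were higher, with log2 differences of 0.85 ± 0.05 and 0.83 ± 0.06 (edgeR adjusted p = 2.17e-10 and 3.99e-09). Plk2, a kinase induced by p53, was at 953, 961 and 1002 CPM in the scramble libraries and 611, 645 and 584 CPM in the add-back libraries, lower (log2 difference -0.66 ± 0.04, edgeR adjusted p = 6.07e-10), and Gadd45a was lower (log2 difference -0.59 ± 0.06, edgeR adjusted p = 6.36e-07). Mdm2, the ubiquitin ligase for p53, was lower (log2 difference -0.41 ± 0.05, edgeR adjusted p = 1.38e-06), next to a neighbourhood median of -0.41. Aen and Atr matched.

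Cholesterol and fatty acid synthesis showed no common direction, with 13 higher, 11 lower, 9 matched and 2 neither of 35 tested and a median of 0.06. Insig1, which retains the sterol sensor, and Sqle, squalene epoxidase, were higher, with log2 differences of 0.88 ± 0.04 and 0.64 ± 0.04 (edgeR adjusted p = 4.95e-11 and 5.06e-10). Fasn, fatty acid synthase, was at 813, 881 and 821 CPM in the scramble libraries and 510.2, 499 and 490.4 CPM in the add-back libraries, lower (log2 difference -0.75 ± 0.04, edgeR adjusted p = 3.24e-10), and Dhcr7, of the last step to cholesterol, was lower (log2 difference -0.76 ± 0.04, edgeR adjusted p = 2.63e-10). The transcription factor gene Srebf2 matched, with an interval of -0.13 to 0.05.

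Hypoxia and glycolysis genes had a median log2 difference of 0.18 in knockdown and of -0.07 in add-back, both against scramble. Of 40 listed 36 were tested, and 10 were higher, 12 lower, 10 matched and 4 were neither. Against knockdown, 20 were lower and none higher, where 4.82% and 5.61% of all tested genes were called. Egln3, the oxygen-sensing hydroxylase PHD3, was at 565, 539.6 and 539 CPM in the scramble libraries and 97.4, 105 and 85.4 CPM in the add-back libraries, lower (log2 difference -2.51 ± 0.06, edgeR adjusted p = 2.73e-14). It lay below its knockdown level of 143, 133 and 135 CPM as well (log2 difference -0.51 ± 0.06, edgeR adjusted p = 2.66e-05). Ak4, an adenylate kinase, was at 15.7, 14.4 and 13.3 CPM in scramble and near 0 in both other groups. Pfkl, a phosphofructokinase, was lower (log2 difference -0.36 ± 0.05, edgeR adjusted p = 7.64e-06) beside a neighbourhood median of -0.56. Car9, carbonic anhydrase 9 of the hypoxic cell surface, was at 221, 203 and 189 CPM in the scramble libraries and 469, 468 and 411 CPM in the add-back libraries, higher (log2 difference 1.14 ± 0.06, edgeR adjusted p = 1.21e-10). Aldoa and Eno1, of glycolysis, matched, with intervals of -0.02 to 0.16 and -0.01 to 0.17.

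In the unfolded protein and integrated stress response, 18 of 35 tested members were higher, 11 lower and 6 matched. Pdia6, a disulfide isomerase, was at 324, 319 and 309 CPM in the scramble libraries and 559, 561 and 535 CPM in the add-back libraries, higher (log2 difference 0.80 ± 0.04, edgeR adjusted p = 1.52e-11), and Atf5 was higher (log2 difference 0.72 ± 0.04, edgeR adjusted p = 1.43e-10). Phgdh, of serine synthesis, was higher (log2 difference 0.71 ± 0.04, edgeR adjusted p = 6.95e-11) with a neighbourhood median of 0.53. Slc7a11, the cystine importer, was at 128, 135 and 143 CPM in the scramble libraries and 42.7, 43.9 and 44.3 CPM in the add-back libraries, lower (log2 difference -1.63 ± 0.05, edgeR adjusted p = 2.06e-13), and at 29.4, 28.0 and 31.9 CPM in knockdown. Ppp1r15a, which ends the stress response, was lower (log2 difference -0.73 ± 0.05, edgeR adjusted p = 1.17e-09). Dnajb11 and Asns matched.

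Nrf2 targets and iron-handling genes stayed below scramble more often than above. Of 35 listed 34 were tested, with 10 higher, 19 lower (8 at least 2-fold), 4 matched and 1 neither, and a median of -0.21 against -0.23 for knockdown. Txnrd1, thioredoxin reductase, was at 869, 890.0 and 934 CPM in the scramble libraries and 345, 366 and 358 CPM in the add-back libraries, lower (log2 difference -1.33 ± 0.04, edgeR adjusted p = 1.15e-13) beside a neighbourhood median of -0.39. Gsta1, a glutathione transferase, was at 33.7, 34.4 and 31.2 CPM in the scramble libraries and 1.4, 0.862 and 1.47 CPM in the add-back libraries, lower (log2 difference -4.73 ± 0.14, edgeR adjusted p = 2.84e-13). It belongs to a family of near copies, so its counts are uncertain. Sod2, the mitochondrial superoxide dismutase and an NF-kB target, was at 67.5, 68.7 and 69.2 CPM in the scramble libraries and 111, 109 and 115 CPM in the add-back libraries, higher (log2 difference 0.71 ± 0.04, edgeR adjusted p = 8.14e-11) with a neighbourhood median of 0.43. Gstm1 and Ugdh were higher, with log2 differences of 1.29 ± 0.06 and 1.11 ± 0.05 (edgeR adjusted p = 5.85e-11 and 4.31e-11). Sod1 and Keap1, the inhibitor of Nrf2, matched.

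**Figure D5:**
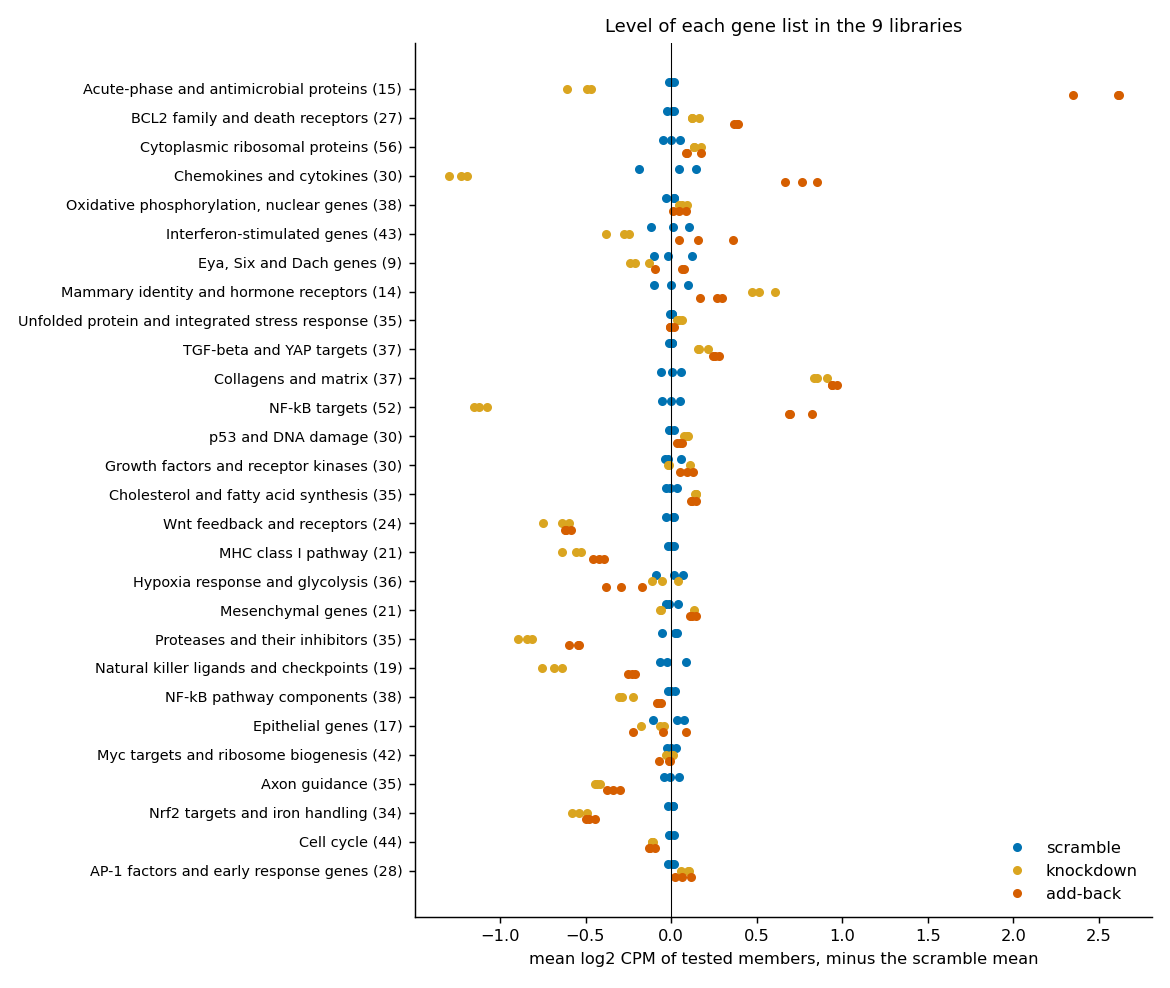
Each point is 1 library, placed at the mean log2 CPM of a list's tested members minus the scramble mean; colours mark the 3 groups. For NF-kB targets the add-back libraries lie at 0.69 to 0.82 and the knockdown libraries at -1.15 to -1.08, on opposite sides of scramble.

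Means over a list, which the plot of list levels by library shows, weigh genes with extreme differences more than medians do. The add-back mean and the median of the gene differences had opposite signs for 3 lists: mesenchymal genes (0.11 to 0.14 over the 3 libraries, median -0.04), Wnt genes (-0.62 to -0.58, median 0.06) and AP-1 factors (0.02 to 0.11, median -0.14).

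Mesenchymal genes were split, with 8 higher, 10 lower and 3 matched of 21 tested. Vim, the intermediate filament vimentin, matched scramble at 2942, 2857 and 2502 CPM in the scramble libraries and 2787, 2735 and 2561 CPM in the add-back libraries, with an interval of -0.16 to 0.08, and lay below knockdown (4047, 3744 and 3640.3 CPM). Fn1, fibronectin, was at 1095, 1122 and 1108 CPM in the scramble libraries and 2019.8, 2124 and 1787 CPM in the add-back libraries, higher (log2 difference 0.84 ± 0.06, edgeR adjusted p = 3.57e-09). Foxc1, a transcription factor of mesenchyme, was at 18.1, 21.7 and 19.8 CPM in the scramble libraries and 70.6, 72.5 and 67.3 CPM in the add-back libraries, higher (log2 difference 1.82 ± 0.07, edgeR adjusted p = 2.29e-12). Sparc, a matrix glycoprotein, was at 359, 368 and 344 CPM in the scramble libraries and 161, 164 and 161 CPM in the add-back libraries, lower (log2 difference -1.14 ± 0.04, edgeR adjusted p = 2.54e-13). The receptor kinase gene Axl and the homeobox gene Prrx1 were lower, with log2 differences of -0.68 ± 0.04 and -1.25 ± 0.08 (edgeR adjusted p = 9.17e-11 and 5.4e-10). Twist1 matched.

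Epithelial and mammary identity genes held some of the widest differences. Of 17 tested epithelial genes 5 were higher, 8 lower and 4 were neither, and of 14 tested identity genes 6 were higher, 3 lower, 3 matched and 2 were neither. Trp63, the basal transcription factor p63, was at 0.0309, 0.0512 and 0 CPM in the scramble libraries and 25.4, 26.7 and 26.6 CPM in the add-back libraries, and at 17.0, 18.1 and 21.2 CPM in knockdown. Scramble was near 0 in every library, so the size of the log2 difference of 9.81 ± 0.21 (edgeR adjusted p = 1.49e-15) rests on few reads. Its standard error may be too small for the same reason. Grhl2, a factor that maintains epithelial genes, was at 36.9, 36.5 and 33.9 CPM in the scramble libraries and 1.00, 0.721 and 0.557 CPM in the add-back libraries, lower (log2 difference -5.54 ± 0.16, edgeR adjusted p = 6.08e-13). Csn3, the milk protein kappa-casein, was at 55.5, 56.9 and 59.0 CPM in the scramble libraries and 0.805, 0.424 and 1.06 CPM in the add-back libraries, lower (log2 difference -6.23 ± 0.15, edgeR adjusted p = 1.35e-13) and below its 2.19, 2.60 and 1.89 CPM in knockdown.

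Keratins and adhesion genes did not move as a block. Krt8, a simple epithelial keratin, was at 647, 643 and 594 CPM in the scramble libraries and 1106, 1084 and 1029 CPM in the add-back libraries, higher (log2 difference 0.77 ± 0.05, edgeR adjusted p = 4.98e-10), and Krt14, a basal keratin, averaged 0.120 CPM against 1.24 CPM in scramble (edgeR adjusted p = 1.16e-06). Pkp3, of desmosomes, was lower (log2 difference -1.72 ± 0.09, edgeR adjusted p = 1.28e-10) and so was Elf3, an epithelial transcription factor (log2 difference -3.16 ± 0.25, edgeR adjusted p = 1.36e-08). Gata3, of luminal identity, was higher (log2 difference 0.72 ± 0.06, edgeR adjusted p = 5.91e-08). The surface marker Cd44 was lower (log2 difference -0.39 ± 0.04, edgeR adjusted p = 7.97e-08) and Cd24a matched, with an interval of -0.08 to 0.06.

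Collagens and other matrix genes stood on both sides of scramble. Of 46 listed 37 were tested, with 18 higher (48.6%, against 27% of all tested genes) and 13 lower (35.1%, against 28.7%). With the 1 CPM filter, 4103 and 4115 of 12361 genes were higher and lower. At least 2-fold were 12 of the higher and 6 of the lower members, while 1 matched and 5 were neither. The median was 0.30, and the same with the 2 genes lacking scramble counts at their bound. Thbs1, which encodes thrombospondin-1, was at 29.7, 30.5 and 29.0 CPM in the scramble libraries and 810.1, 849 and 864 CPM in the add-back libraries, with 1096, 1144 and 1128 CPM in knockdown. Add-back lay between the other groups and far nearer to knockdown, with a log2 difference of 4.82 ± 0.04 from scramble (edgeR adjusted p = 1.19e-19). Spp1, osteopontin, was at 196, 194 and 197 CPM in the scramble libraries and 2493, 2254 and 2423 CPM in the add-back libraries, higher (log2 difference 3.61 ± 0.05, edgeR adjusted p = 1.61e-17) and higher than knockdown (log2 difference 0.52 ± 0.05, edgeR adjusted p = 1.08e-06). Col5a2 was at 2.04, 1.64 and 1.87 CPM in the scramble libraries and 68.1, 65.5 and 61.5 CPM in the add-back libraries, higher (log2 difference 5.14 ± 0.07, edgeR adjusted p = 1.61e-17). Col3a1, a fibrillar collagen, had no counts in scramble and 11.3, 12.2 and 12.4 CPM in add-back, at least 871-fold higher. Lamb3, of laminin-332, was at 10.8, 11.2 and 9.80 CPM in the scramble libraries and 2.01, 2.20 and 2.36 CPM in the add-back libraries, lower (log2 difference -2.27 ± 0.10, edgeR adjusted p = 2.16e-11), and Mfge8 was lower (log2 difference -0.45 ± 0.03, edgeR adjusted p = 1.17e-08). Col16a1 was near 0 in add-back, at 0.158, 0.0283 and 0.257 CPM against 4.83, 5.21 and 4.72 CPM. Col6a1 matched.

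Proteases were lower more often than higher, with 18 and 14 of 35 tested, 1 matched and 2 neither, a median of -0.34 and 12 members lower by at least 2-fold. Procr, the protein C receptor, was at 112, 115 and 116 CPM in scramble and at 0.0660, 0.0848 and 0.0286 CPM in add-back, near 0 in every library (edgeR adjusted p = 7.54e-19). Mmp24, a membrane-type metalloprotease, was at 80.9, 78.9 and 72.9 CPM in the scramble libraries and 1.06, 1.24 and 1.01 CPM in the add-back libraries, lower (log2 difference -6.13 ± 0.09, edgeR adjusted p = 2.5e-17). Adam8 was at 29.2, 29.8 and 28.1 CPM in the scramble libraries and 7.76, 7.0 and 6.53 CPM in the add-back libraries, lower (log2 difference -2.03 ± 0.07, edgeR adjusted p = 6.42e-13), and at a mean of 7.09 CPM in knockdown. The inhibitor Timp2 and the serine protease gene Htra1 were higher, with log2 differences of 0.64 ± 0.04 and 0.52 ± 0.03 (edgeR adjusted p = 1.86e-10 and 2.16e-09), and so was Adam19 (log2 difference 3.82 ± 0.19, edgeR adjusted p = 5.98e-11). Ctsb, cathepsin B, matched at 404, 395 and 384 CPM in the scramble libraries and 421, 414 and 398 CPM in the add-back libraries.

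TGF-beta and YAP genes had 19 higher, 14 lower and 4 matched of 37 tested. Among receptors, Tgfbr2, the type II chain, was at 553, 562 and 541 CPM in the scramble libraries and 308, 319 and 296 CPM in the add-back libraries, lower (log2 difference -0.84 ± 0.04, edgeR adjusted p = 1.68e-11). Tgfbr3, betaglycan, was at 67.6, 66.9 and 64.5 CPM in the scramble libraries and 194, 180.4 and 173 CPM in the add-back libraries, higher (log2 difference 1.46 ± 0.05, edgeR adjusted p = 3.86e-13) beside a neighbourhood median of 0.47. Among latent TGF-beta binding proteins, Ltbp1 was higher and Ltbp4 lower, with log2 differences of 1.37 ± 0.04 and -1.77 ± 0.05 (edgeR adjusted p = 9.33e-14 and 6.71e-14). Fst, follistatin, which binds activin, was at 1.96, 1.95 and 2.23 CPM in the scramble libraries and 22, 21.3 and 24.4 CPM in the add-back libraries, higher (log2 difference 3.46 ± 0.08, edgeR adjusted p = 8.44e-15). Ankrd1, a target of YAP, was at 688, 688 and 754 CPM in the scramble libraries and 315, 332 and 354 CPM in the add-back libraries, lower (log2 difference -1.09 ± 0.05, edgeR adjusted p = 3.7e-11). Bhlhe40, a hypoxia and TGF-beta responsive repressor, matched at a mean of 97.9 CPM, from 136 CPM in knockdown, and Skil, which restrains Smad proteins, matched as well.

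Wnt genes had 9 higher, 8 lower, 3 matched and 4 neither of 24 tested. Nkd1, a feedback antagonist of Wnt signalling, was at 34.8, 36.0 and 36.5 CPM in scramble and had a few reads in 1 add-back library only, at 0, 0 and 0.0429 CPM (edgeR adjusted p = 1.25e-14). Lgr6, a receptor of R-spondins, was at 27.1, 28.6 and 24.2 CPM in the scramble libraries and 1.00, 0.622 and 0.700 CPM in the add-back libraries, lower (log2 difference -5.09 ± 0.14, edgeR adjusted p = 5.11e-14), while its relative Lgr4 was higher (log2 difference 1.00 ± 0.08, edgeR adjusted p = 9.7e-09). Among the Frizzled receptors, Fzd1 was at 16.4, 14.4 and 14.1 CPM in the scramble libraries and 41.2, 40.6 and 44.8 CPM in the add-back libraries, higher (log2 difference 1.50 ± 0.06, edgeR adjusted p = 4.46e-12), Fzd4 was lower (log2 difference -1.42 ± 0.11, edgeR adjusted p = 1.37e-08) and Fzd6 matched. The ligand gene Wnt7b matched, at a mean of 51.7 CPM, from 64.0 CPM in knockdown.

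Axon guidance genes, which also steer tumour and vessel cells, had 10 higher, 19 lower, 4 matched and 2 neither of 35 tested. Sema3a, a ligand of neuropilin and plexin, was at 31.4, 29.9 and 32.9 CPM in the scramble libraries and 219, 221 and 217 CPM in the add-back libraries, higher (log2 difference 2.80 ± 0.04, edgeR adjusted p = 2.5e-17) and higher than knockdown (log2 difference 0.41 ± 0.04, edgeR adjusted p = 2.23e-06). Sema3c, of the same class, was at 77.6, 78.5 and 82.9 CPM in the scramble libraries and 34.8, 31.1 and 35.5 CPM in the add-back libraries, lower than scramble (log2 difference -1.24 ± 0.06, edgeR adjusted p = 5.01e-11) and above its 12.3, 11.5 and 13.7 CPM in knockdown. Ntn1, netrin-1, was at 26.9, 25.5 and 25.4 CPM in the scramble libraries and 2.27, 1.68 and 2.13 CPM in the add-back libraries, lower (log2 difference -3.67 ± 0.10, edgeR adjusted p = 5.57e-14), against 0.512, 0.433 and 0.332 CPM in knockdown. Among ephrins and their receptors, Efna5 was higher (log2 difference 1.44 ± 0.04, edgeR adjusted p = 1.45e-13) beside a neighbourhood median of 0.40, Epha4 went from near 0 to 1.85, 2.40 and 2.36 CPM, and Ephb4 matched. Plxnb2 matched too.

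AP-1 and early response genes leaned lower, with 5 higher, 14 lower, 6 matched and 3 neither of 28 tested, and a median of -0.14. Jund was at 242, 268 and 255 CPM in the scramble libraries and 135, 132 and 118 CPM in the add-back libraries, lower (log2 difference -0.99 ± 0.05, edgeR adjusted p = 4.87e-11) and lower than knockdown (log2 difference -0.36 ± 0.05, edgeR adjusted p = 0.000112). Dusp5, a phosphatase for ERK, was lower (log2 difference -1.62 ± 0.10, edgeR adjusted p = 9.17e-10). Spry1, an inhibitor of receptor kinase signalling, was at 25.4, 25 and 26.2 CPM in the scramble libraries and 136, 132 and 143 CPM in the add-back libraries, higher (log2 difference 2.42 ± 0.04, edgeR adjusted p = 1.33e-16). The Krüppel-like factor genes Klf4 and Klf2 were higher, with log2 differences of 2.72 ± 0.07 and 3.92 ± 0.11 (edgeR adjusted p = 1.1e-13 and 8.47e-14), with Klf4 at 12.4, 13.0 and 15.2 CPM in the scramble libraries and 88.6, 95.8 and 83.5 CPM in the add-back libraries. Klf6 matched.

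Growth factors and receptor kinases had 14 higher, 12 lower and 4 matched of 30 tested. Areg, the EGF receptor ligand amphiregulin, was at 13.8, 13.4 and 14.7 CPM in the scramble libraries and 33.0, 38.8 and 35.1 CPM in the add-back libraries, higher (log2 difference 1.35 ± 0.06, edgeR adjusted p = 1.8e-11), between scramble and the 52.3, 50.3 and 50.5 CPM of knockdown. Fgfr1 was at 2.88, 2.70 and 2.46 CPM in the scramble libraries and 17.4, 16.5 and 15.8 CPM in the add-back libraries, higher (log2 difference 2.63 ± 0.08, edgeR adjusted p = 1.72e-13), and its relative Fgfr3 was at 2.63, 3.10 and 3.79 CPM in scramble and near 0 in add-back. Vegfc, the lymphatic growth factor, was at 16.6, 15.8 and 18.9 CPM in the scramble libraries and 1.23, 1.31 and 1.39 CPM in the add-back libraries, lower (log2 difference -3.71 ± 0.14, edgeR adjusted p = 1.22e-12) and above its 0.400, 0.229 and 0.160 CPM in knockdown. Igf1r and Vegfb matched.

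The BCL2 family and death receptors were mostly higher, with 16 higher, 3 lower, 7 matched and 1 neither of 27 tested and a median of 0.25. Fas is given above. Gsdme and Gsdmd, pore-forming gasdermins, were higher, with log2 differences of 1.60 ± 0.07 and 0.60 ± 0.05 (edgeR adjusted p = 2.16e-11 and 4.93e-08), with Gsdme at 8.62, 8.58 and 7.90 CPM in the scramble libraries and 25.2, 27.9 and 22.9 CPM in the add-back libraries. Mlkl, the effector of necroptosis, was at 218, 214 and 211 CPM in the scramble libraries and 128, 138 and 131 CPM in the add-back libraries, lower (log2 difference -0.69 ± 0.04, edgeR adjusted p = 3.57e-10). Xiap, an inhibitor of caspases, was lower with an interval within 0.32 of 0 (log2 difference -0.17 ± 0.04, edgeR adjusted p = 0.00163), and so beyond it was Bok, which promotes cell death (log2 difference -0.39 ± 0.11, edgeR adjusted p = 0.00578).

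Of 9 tested genes of the Eya and Dach network, Eya3 included, 5 were higher and 3 lower. Eya1, a paralogue of Eya3, was at 60.4, 61.9 and 65.3 CPM in the scramble libraries and 35.7, 37.4 and 38.1 CPM in the add-back libraries, lower (log2 difference -0.76 ± 0.06, edgeR adjusted p = 6.07e-09) and above its 23.7, 26.5 and 27.5 CPM in knockdown. Six3 was higher (log2 difference 0.94 ± 0.07, edgeR adjusted p = 3.74e-09), beside a neighbourhood median of 0.44, and so was Six4 (log2 difference 0.29 ± 0.05, edgeR adjusted p = 0.000273). Eya2 and Dach1 were below 1 CPM in all 9 libraries.

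The 10 widest rises over scramble were ranked where the mean log2 CPM over all 9 libraries reached 1, which a gene near 0 in both scramble and knockdown, such as Il1a, did not reach. After Trp63, Spint2, an inhibitor of matriptase, was at 0.0619, 0.0256 and 0 CPM in the scramble libraries and 16.1, 17.4 and 15.7 CPM in the add-back libraries and Inmt, an amine methyltransferase, at 0.0464, 0.0768 and 0 CPM in the scramble libraries and 23.7, 19.1 and 18.0 CPM in the add-back libraries. Mrc2, the collagen-uptake receptor Endo180, was at 1.89, 1.5 and 1.32 CPM in the scramble libraries and 205, 200.2 and 179.6 CPM in the add-back libraries, a log2 difference of 6.97 ± 0.09 (edgeR adjusted p = 2.16e-17). Serpina1a and Serpina1b, antitrypsin genes, had log2 differences of 7.25 ± 0.10 and 6.74 ± 0.18 (edgeR adjusted p = 1.16e-17 and 7.2e-14), and reads may be split among their near copies. The small heat shock protein gene Hspb7 was at 0.0155, 0.0384 and 0.106 CPM in the scramble libraries and 7.31, 8.04 and 5.33 CPM in the add-back libraries, higher than scramble, and lower than the 25.2, 23.9 and 25.2 CPM of knockdown. Nudt14, Trp53i11 and Slc24a3 had log2 differences between 6.44 and 6.73.

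The 10 deepest falls under the same rule were of genes also called lower in knockdown, which shares the scramble libraries. The rule left out some genes near 0 in both add-back and knockdown, such as Psmb8 and Ak4, which fell further. Fgfbp1, a secreted carrier of fibroblast growth factors, was at 136, 134 and 144 CPM in the scramble libraries and 1.72, 1.37 and 1.30 CPM in the add-back libraries, a log2 difference of -6.55 ± 0.11 (edgeR adjusted p = 4.66e-16). Arhgef28, an exchange factor for RhoA, was at 106, 104 and 100.4 CPM in the scramble libraries and 2.60, 3.00 and 3.06 CPM in the add-back libraries, a log2 difference of -5.16 ± 0.08 (edgeR adjusted p = 2.5e-17). Hspa12a, Sfmbt2, Slain1, Dppa4 and Coro2a had log2 differences between -5.07 and -5.73. Of the 10 deepest falls, Slain1 was called higher in add-back than in knockdown, with a log2 difference of 0.58 ± 0.15 (edgeR adjusted p = 0.0173), and Csn3 lower, while the other 8 were not called between those groups.

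Some genes had no counts at all in 1 of the groups. Without counts in scramble and with at least 1 CPM in add-back were 7 genes: Col3a1, Serpina1c, Slc7a2, Etfbkmt, P3h2, Hp and Ptx3. Slc7a2, a carrier of arginine and other cationic amino acids, was at 3.93, 2.94 and 3.33 CPM in add-back, at least 247-fold higher than scramble, and at or near 0 in knockdown. P3h2, a collagen prolyl hydroxylase, was at least 138-fold higher. The reverse held for 26 genes, among them Tysnd1, a peroxisomal protease, at 11.6, 11.9 and 9.98 CPM in scramble and at least 804-fold lower in add-back. Ckb, brain-type creatine kinase, was at 7.30, 6.91 and 6.76 CPM and at least 505-fold lower. Tmtc2, Xlr4b and Gm45589 were at least 668-fold, 552-fold and 463-fold lower. Neither Tysnd1 nor Ckb had counts in knockdown. These bounds are against 3 counts over the group and cover counting error only.

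Some genes lay on opposite sides of scramble in knockdown and in add-back, and the set is given as a description because it was chosen for that pattern. Chil1, a chitinase-like secreted protein, averaged 0.276, 0.0677 and 3.43 CPM in scramble, knockdown and add-back. Gbp5, a guanylate-binding protein, averaged 0.164, 0.0600 and 1.03 CPM. Lcn2, Saa3, Ccl7 and Icam1, described above, showed the same order, as did Lypd6b and Cd33, both below 1 CPM. In the mirror pattern, Kctd11 averaged 46.6, 59.4 and 28.2 CPM, Fbln2, a matrix protein, 420.2, 577 and 349.8 CPM, and Anxa2, a membrane-binding annexin, 977, 1091 and 820.4 CPM. Numbl, Hspb6, Chac1, Fosl2 and Anxa8 followed the same order.

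Markers of other cell types that a culture could hold were summed in each library. Summed macrophage markers (14 genes) ran from 52.0 to 55.3 CPM in scramble, 27.5 to 31.3 CPM in knockdown and 39.3 to 41.8 CPM in add-back, with 2 of 6 tested members higher (1 without scramble replicate 2) and 3 lower, and the defining genes Ptprc and Adgre1 were at most 0.157 and 0.0283 CPM. Neutrophil markers (10 genes) summed to 0.159 to 0.269 CPM in scramble and 1.33 to 1.90 CPM in add-back, mostly S100a8, which is also on the acute-phase list, while Ly6g and Elane were at most 0.0132 and 0.0531 CPM. Lymphocyte markers (12 genes) summed to at most 0.425 CPM in any library. Endothelial markers (11 genes) summed to 6.23 to 7.41 CPM in scramble and 2.39 to 2.53 CPM in add-back. Much of the scramble sum was the defining gene Cdh5, at 4.72, 4.28 and 4.08 CPM in scramble and 0.620, 0.438 and 0.843 CPM in add-back. The other defining genes, Pecam1 and Tek, were at most 0.263 and 0.108 CPM in any library. Of 7 tested endothelial members, 1 was higher, 3 were lower and 3 were neither called nor matched. Fibroblast markers (12 genes) summed to 70.2 to 72.9 CPM in scramble and 97.1 to 100.7 CPM in add-back, with 7 of 9 tested members higher and 2 lower, and of their defining genes Dcn was at most 0.844 CPM, Dpt 0.371 CPM and Lum 0.0528 CPM in any library. Other genes of that list were more abundant than these. Pdgfra, called lower than scramble, reached 48.6 CPM in a scramble library. S100a4 and Col3a1, both called higher than scramble, reached 34.0 and 14.0 CPM, each in a knockdown library. Of 17 genes that track RNA quality, 1 was higher (up to 4 with 1 library left out) and 2 lower (up to 5), and their sums ran from 11655 to 12566 CPM in scramble and from 10469 to 14547 CPM in add-back. The part of these markers in the results above was not tested.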

How the data were processed

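The series holds 9 mRNA-seq libraries, 3 for each of scramble with empty vector, Eya3 hairpin with empty vector and Eya3 hairpin with IKK2-SE. The authors deposited 1 table of raw read counts for 52208 gene symbols. The submitters' processing notes name FastQC, MultiQC, STAR and mm10. Nothing used here states the counting program, the annotation or the strand setting. No column was left unmapped.

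Counts were analysed with edgeR 4.0.16 in R 4.3.3 (TMM scaling, filterByExpr by group with a minimum count of 10 and a total of 15, robust quasi-likelihood fit of a group term to the 9 libraries, 6 residual degrees of freedom, Benjamini-Hochberg adjustment over 16766 genes, calls at 0.05). CPM values use TMM-scaled totals. Each standard error is the absolute log2 difference divided by the square root of the test's F statistic. Such errors, and the intervals made from them, may be too small for genes near 0 in a group. A difference matched where it was not called and its 95% interval lay within 0.32 of 0 on the log2 scale. The fitting code was also tested on simulated data with known changes. Positions come from GENCODE (GRCm38) by symbol for 96.93% of tested genes. The common biological coefficient of variation was 5.265%. Totals of 63601403 to 81534534 counts per library limit precision for genes under about 1 CPM.

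The members and the 34 gene lists were chosen with earlier results of these data known. Named genes were a set of 12 (Eya3, Ikbkb, Rela, Nfkb1, Nfkbia, Tnfaip3, Ccl2, Cxcl1, Cxcl5, Lcn2, Myc and Cd274), the 10 widest rises and falls, up to 6 genes without counts in 1 group in each direction, up to 3 higher, 3 lower and 2 matched genes of each list, and 8 genes on opposite sides of scramble each way. Not every gene so chosen is printed. Esr1, Erbb2, Pgr, Epcam and other cell type markers were named as markers, and Cxcl2, Cxcl10, Nfkb2, Nfkbib, Nfkbie, Rel, Relb, Ptx3 and the genes under other observations after their values were seen. Replicate numbers do not pair cultures by any label. Alternatives were other size factors, filters, tests (DESeq2 1.42.0, limma 3.58.1 voom), samples fitted, a replicate block and leaving out each library.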

Additional observations from a re-analysis of the deposited data

How the results depend on the processing

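No gene called in the reported analysis or in an alternative reversed direction among the 288 named genes refitted under 17 alternatives (a gene that the CPM filter removed had fewer), while 18 without a call, such as Bhlhe40 and Cd24a, changed sign. The count of acute-phase and antimicrobial genes called lower moved from 2 to 1 when genes needed 1 CPM in at least 3 libraries, a filter that tests fewer genes. Genes called higher and lower numbered 4533 and 4819 in the reported analysis, 4255 and 5038 with library totals in place of TMM, 4103 and 4115 with the CPM filter, 4662 and 5061 without a filter on low counts, 4496 and 4810 with DESeq2, 4503 and 4864 with limma voom, and 4518 and 4681 with only the 6 libraries compared. Leaving out 1 library gave 4174 to 4678 higher and 4326 to 4833 lower calls. With the replicate number as a block, 4863 were higher, 5134 lower and 4989 had intervals within 0.32 of 0, against 4588 without the block. Same-numbered add-back and scramble libraries had correlations of 0.287, -0.026 and 0.263 in their deviations from the group means. Replicates 1 and 3 of add-back each correlated best with the scramble library of the same number. Replicate 2 of add-back correlated best with scramble replicate 3, at 0.0593. These values do not settle whether the numbers pair the samples. Cd274 lost its call in 9 alternatives, Rps20 in 5, Cxcl2 in 4, C1qb and Lyz2 in 2 each and Flt1 and Rel in 1 each. For genes without a call that became called in some alternative, such as Klf6 and Tfap2a (6 each) and Nectin2 (7), the cause was not tested. Genes under 1 CPM, which include Il1a and Ccl20 in scramble, have differences whose size rests on few reads.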

Other observations

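Further NF-kB target genes, named after their values were seen, fell on either side of scramble. Nos2, the inducible nitric oxide synthase, was at 9.28, 7.23 and 6.16 CPM in the scramble libraries and 47.2, 45.3 and 38.3 CPM in the add-back libraries, with 8.43, 6.08 and 4.13 CPM in knockdown (log2 difference from scramble 2.54 ± 0.23, edgeR adjusted p = 1.62e-05). Nfkbiz, a nuclear IkB protein that aids transcription of secondary targets, was at 19.4, 18.5 and 16.7 CPM in the scramble libraries and 45.4, 43.5 and 43.3 CPM in the add-back libraries (log2 difference 1.28 ± 0.06, edgeR adjusted p = 3.34e-11). Bcl3, another nuclear IkB protein, stood at 10.7, 11.6 and 11.9 CPM in the scramble libraries and 3.14, 3.19 and 2.87 CPM in the add-back libraries, below scramble (log2 difference -1.89 ± 0.10, edgeR adjusted p = 6.97e-11) and above its 1.4, 1.55 and 1.29 CPM in knockdown. Tlr2, a receptor for bacterial lipoproteins, averaged 9.12, 4.42 and 9.15 CPM in scramble, knockdown and add-back and matched scramble, with an interval of -0.19 to 0.21.

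The colony-stimulating factor genes Csf1, Csf2 and Csf3, chosen in the same way, were above scramble. Csf1, the macrophage factor, was at 384, 398 and 411 CPM in the scramble libraries and 613, 613 and 614 CPM in the add-back libraries, and at 401, 385 and 413 CPM in knockdown, which overlapped with scramble (log2 difference from scramble 0.63 ± 0.04, edgeR adjusted p = 5.24e-10, neighbourhood median 0.46). Csf3, the granulocyte factor, was at 1.42, 1.37 and 1.22 CPM in the scramble libraries and 5.16, 3.86 and 3.86 CPM in the add-back libraries, and at 0.0874, 0.0637 and 0 CPM in knockdown (log2 difference from scramble 1.68 ± 0.20, edgeR adjusted p = 2.43e-06). Csf2, which acts on granulocytes and macrophages, was called higher (edgeR adjusted p = 3.07e-05) but stayed below 1 CPM in every library, with means of 0.0369 CPM in scramble and 0.567 CPM in add-back. The neutrophil chemokine gene Cxcl3 was at 50.9, 53.6 and 57.5 CPM in the scramble libraries and 108, 94.7 and 106 CPM in the add-back libraries, and at 7.74, 7.47 and 8.75 CPM in knockdown (log2 difference from scramble 0.93 ± 0.06, edgeR adjusted p = 1.44e-09).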
